A study of Mus musculus with 52 samples.

Results

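Whole brain of female C57BL/6 mice was compared between 6 months and 1 month of age, in 3 RNA-seq libraries per age. These 6 libraries were chosen by their titles, out of 52 in a series on kidney, spleen and brain. In that series C57BL/6 mice served as healthy, age-matched controls for NZB/W-F1 mice, hybrids of New Zealand Black mothers and New Zealand White fathers that develop a lupus-like disease and were nephritic at 6 months. The 1-month animals were at the stage before puberty. Mice of every group were labelled female, although 1 NZB/W-F1 library of 6 months was nearly without Xist, the RNA of the inactive X chromosome. The labels name no allele or treatment besides the strain, and give the animals as perfused with buffered saline before the brain was taken. The 3 C57BL/6 libraries of 3 months, and the 3 NZB/W-F1 libraries of each of 1 and 6 months, are used to place this comparison, and all 18 brain libraries entered the fit and so the estimate of spread behind each p. The labels give 3 animals per age without saying which litter they came from, so the p-values measure the spread between these libraries.

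Between weaning and adulthood the mouse brain finishes most of its myelin. Oligodendrocyte precursor cells leave the cell cycle, pass through a short premyelinating stage marked by genes such as Gpr17 and Enpp6, and become oligodendrocytes that wrap axons in a membrane rich in the proteins encoded by Mbp, Mobp, Mog and Cldn11. Over the same period the last neurons born after birth extend and prune their processes, and the membranes and vessels around the brain lay down fibrillar collagen and elastin that turn over slowly once made.

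The deposited unit is CPM, a gene's reads per 1000000 reads of its library, scaled between libraries by trimmed-mean factors, and the values convert back to whole reads. In units of 1000000, reads in genes numbered 9.24 to 17.1 at 1 month and 11.3 to 13.9 at 6 months. Markers of neurons and glia were abundant in all 6 libraries. The summed level of 22 astrocyte genes was 10302 to 12583 CPM, and that of 5 pituitary genes, a tissue that can be taken with the brain, was 4.27 to 30.9 CPM. The libraries of 6 months were not alike. Replicate 3 differed from replicates 1 and 2 by a chi-square of 34.9 and 40.9 per gene, against 3.90 between replicates 1 and 2 and 8.24 to 17.5 among the libraries of 1 month. This difference followed base composition: across genes, the deviation of a gene's level from its mean over 18 brain libraries correlated with the gene's GC content at r = -0.49 and -0.52 in 6-month replicates 1 and 2 and at r = 0.46 in replicate 3. At 1 month the same r was 0.02, 0.50 and 0.01. The change between the ages therefore also leaned on GC content (r = -0.39 across 14888 genes, which are not independent), with a median log2 change of 0.15 among the 25% of genes poorest in GC and -0.17 among the 25% richest in GC. Results below are given on the deposited scale, and a GC correction chosen after seeing the data is given beside the counts and calls that it moved most. The sample records of C57BL/6 at 6 months and at 1 month also lie in separate stretches of the series' numbering, and no label gives a date or batch, so age and any difference in preparation cannot be told apart in this comparison.

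**Figure D1:**
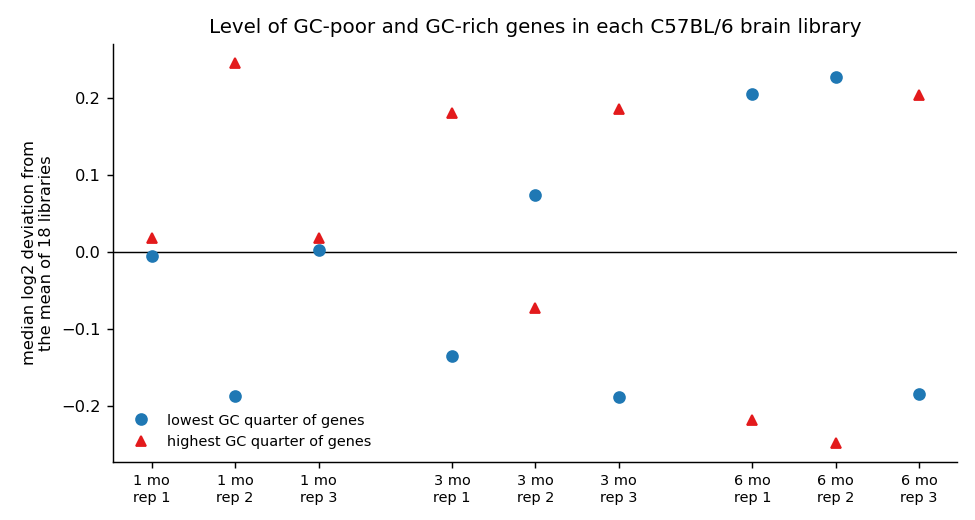
Median log2 deviation of gene levels from their mean over 18 brain libraries (vertical axis) in each C57BL/6 library, drawn separately for the 25% of genes poorest and the 25% richest in GC. In 6-month replicates 1 and 2 the GC-rich genes sit at -0.22 and -0.25 and in replicate 3 at 0.20.

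Of 14895 genes tested, 661 (4.44%) passed an adjusted p of 0.05 between 6 and 1 month (limma with Benjamini-Hochberg adjustment over all genes). At 6 months 267 of them (1.79%) were higher and 394 (2.65%) lower. The median size of change among them was 0.63 on the log2 scale; 36 were at least 2-fold higher and 57 at least 2-fold lower. In 653 of the 661 the libraries of both ages did not overlap, which held for 22.8% of all genes (11.6% higher and 11.3% lower at 6 months). The count rested on the libraries included. Leaving out 1 library at a time gave between 161 and 2455 genes, the highest without 6-month replicate 3, where 638 of the 661 still passed, and 123 of the 661 passed in all 6 of these fits. With only these 6 libraries in the fit 83 genes passed, with edgeR's quasi-likelihood test on the recovered reads 676 (4.54%). After the GC correction 1200 passed (8.06%; 569 higher, 3.82%, and 631 lower, 4.24%), among them 577 of the 661 in the same direction. Without 6-month replicate 3 the 2455 genes were 1122 higher and 1333 lower. The list counts below are to be read against the totals over all genes in the same fit, which moved as well.

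**Figure D2:**
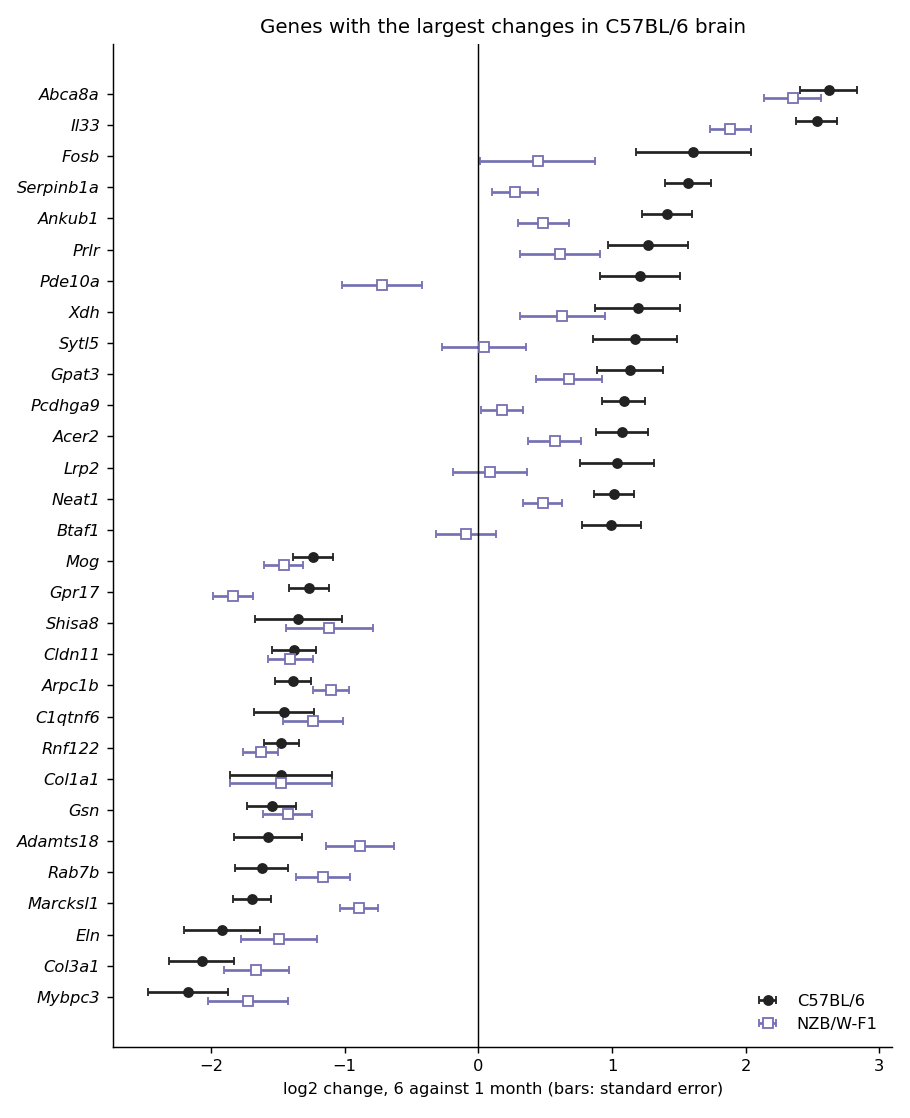
Log2 change from 1 to 6 months (horizontal axis; bars are standard errors) of the 15 genes with the largest rise and the 15 with the largest fall in C57BL/6 brain at a mean of at least 5 CPM at either age, predicted and clone-named genes passed over, in C57BL/6 (filled circles) and NZB/W-F1 (open squares). Among the genes drawn, Abca8a at 2.62 and Il33 at 2.53 lead the rise and Mybpc3 at -2.17 leads the fall in C57BL/6.

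Among the genes named, which leave out predicted and clone-named genes such as Gm42756 (log2 change 3.35) and C030029H02Rik (2.55), the largest rises were those of Abca8a and of Il33, the latter a member of the mature oligodendrocyte list. Il33, which encodes a nuclear cytokine of the interleukin family released from damaged cells and made in brain by oligodendrocytes and astrocytes, lies at chr19:29925114-29960718 (GRCm38). Its level was 18.2, 17.4 and 17.5 CPM in the 3 libraries of 1 month and 112, 123 and 83.8 CPM in those of 6 months. The lowest 6-month library stood far above the highest of 1 month, and the 3 libraries of 1 month were almost equal. The log2 change was 2.53 (SE 0.15; limma adjusted p = 4.1e-08). Abca8a, which encodes an ATP-binding cassette transporter of lipids and lies at chr11:110025634-110095978, was at 2.99, 2.07 and 3.61 CPM at 1 month and at 20.9, 22.5 and 16.9 CPM at 6 months. It had the largest fitted change of any gene named by the rule, 2.62 (SE 0.21; limma adjusted p = 2e-06), and the groups were far apart. Both calls held in all 6 fits without 1 library. Genes named for the size of their change, here and below, had to show no overlap between the ages. Their separation was thus a condition of choice.

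The RefSeq promoter table (GRCm38.p6) lists 2 starts for Il33. The 250 bases before each are shown because this gene had the smallest adjusted p of the oligodendrocyte list; capitals mark TATAAA, the letters of the TATA element, on the strand of the gene.
Il33, start 1, chr19:29924863-29925112, plus strand: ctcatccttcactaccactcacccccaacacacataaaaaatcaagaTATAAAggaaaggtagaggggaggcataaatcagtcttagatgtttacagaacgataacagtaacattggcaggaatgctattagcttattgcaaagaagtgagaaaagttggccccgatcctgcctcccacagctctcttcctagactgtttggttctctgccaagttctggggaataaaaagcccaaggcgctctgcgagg
Il33, start 2, chr19:29945540-29945789, plus strand: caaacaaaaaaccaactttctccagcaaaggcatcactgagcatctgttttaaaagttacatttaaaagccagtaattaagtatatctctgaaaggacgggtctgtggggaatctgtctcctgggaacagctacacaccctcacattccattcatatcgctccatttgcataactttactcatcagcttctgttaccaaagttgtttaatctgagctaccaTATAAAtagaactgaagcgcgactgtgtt
The letters lie 203 to 198 bases before the first start and 29 to 24 bases before the second. Windows of this length before 7.59% of all 32851 annotated starts hold TATAAA on the gene's strand. The deposited values are per gene and do not say which start was used.

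Among the 33 genes of the mature oligodendrocyte and myelin list, which includes Il33, another 4 rose. Serpinb1a, an inhibitor of neutrophil-type serine proteases, went from 8.15, 5.73 and 5.92 CPM to 21.6, 22.9 and 16.9 CPM (log2 change 1.57, SE 0.17; limma adjusted p = 7.6e-05). Anln, encoding the actin-binding protein anillin that is known both from dividing cells and from the inner layers of myelin, was at 48.7, 34.7 and 36.4 CPM at 1 month and at 76.6, 94.0 and 61.9 CPM at 6 months (log2 change 0.95, SE 0.16; limma adjusted p = 0.0029). The groups of both genes were separate, with 6-month replicate 3 the lowest of its age in each. Car2, encoding a cytosolic carbonic anhydrase, rose by a log2 change of 0.54 (SE 0.10; limma adjusted p = 0.0078), from a mean of 199.7 ± 16.1 CPM to 291 ± 27.9 CPM (SD, n = 3). Qdpr, which regenerates the pterin cofactor of monoamine synthesis, changed by 0.55 (limma adjusted p = 0.041). Qdpr missed the threshold in 5 of the 6 fits without 1 library (adjusted p up to 0.17, without 6-month replicate 2) and Car2 in 1 (0.05, without the same library).

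The list also had 14 members that fell, among them the genes of the compact myelin sheath. Mog, which encodes a glycoprotein on the outermost face of myelin, was at 260.0, 220 and 191 CPM at 1 month and at 93.0, 101 and 87.8 CPM at 6 months. Cldn11, the claudin of the tight junctions between myelin layers, went from 661, 539 and 441 CPM to 200.0, 223 and 199 CPM. Gsn, encoding the actin-severing protein gelsolin, went from 336, 327 and 249 CPM to 88.1, 99.3 and 124 CPM. For these 3 genes every 6-month library lay below every 1-month library by a wide margin. Their log2 changes were -1.24 (SE 0.15), -1.38 (SE 0.17) and -1.55 (SE 0.18), with limma adjusted p-values of 0.00013, 0.00013 and 0.00011. All 3 calls held in each fit without 1 library.

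Other genes of the sheath fell as well, with more spread. Mbp, encoding the protein that seals the cytoplasmic faces of the sheath, was at 9197, 8599.9 and 5581 CPM at 1 month and at 3318, 4016 and 4380.2 CPM at 6 months. The groups did not overlap, and 1-month replicate 3 was the nearest to the libraries of 6 months. The log2 change of Mbp was -0.97 (SE 0.23; limma adjusted p = 0.024). It missed the threshold in 4 of the 6 fits without 1 library (adjusted p up to 0.12, without 6-month replicate 1). Cnp, encoding a phosphodiesterase that keeps cytoplasmic channels in myelin open, went from 1135, 1068 and 877 CPM to 515, 553 and 538 CPM, a log2 change of -0.93 (SE 0.14; limma adjusted p = 0.0012). Mobp, another basic protein of compact myelin, went from 2647, 2379 and 1844 CPM to 1117, 1364 and 1121 CPM, with a limma adjusted p of 0.009 that became 0.054 without 6-month replicate 1. Mal, a proteolipid of membrane rafts, and Fa2h, which hydroxylates the fatty acids of myelin lipids, changed by -0.94 each (limma adjusted p = 0.0071 and 0.0045), and the calls of Cnp, Mal and Fa2h held in each fit without 1 library. Falls were also called for the tetraspanin gene Tspan2, the galactolipid synthase gene Ugt8a, the membrane protein gene Opalin and the lysophosphatidic acid receptor gene Lpar1, with log2 changes from -0.94 for Tspan2 to -0.52 for Lpar1. Each of these 4 missed the threshold in at least 1 fit without 1 library, with adjusted p-values up to 0.083 for Opalin without 1-month replicate 1.

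Over the whole list of 33 genes, 5 rose and 14 fell, against 1.79% and 2.65% of all genes, and the median log2 change was -0.44, against 0.0009 over all genes tested. After the GC correction the counts were 6 and 15, and in the fits without 1 library they ran from 3 to 6 and from 7 to 15, the lowest count of falls without 1-month replicate 1, where the median was -0.28. The summed level of the list was 15848 to 24273 CPM at 1 month and 10525 to 12364 CPM at 6 months. The list held rises and falls of more than 2-fold side by side, so its members did not scale by a common factor. In whole tissue, fewer cells of a type and less RNA of a gene per cell cannot be told apart.

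Among 25 genes of the oligodendrocyte precursor and newly formed oligodendrocyte 7 fell and 0 rose, against 2.65% and 1.79% of all genes. Rnf122, which encodes a membrane-bound ubiquitin ligase, was at 26.0, 27.3 and 25.3 CPM at 1 month and at 8.19, 8.79 and 10.5 CPM at 6 months. Gpr17, a receptor that marks premyelinating cells and holds back their maturation, went from 111, 127 and 127 CPM to 47.7, 46.2 and 57.3 CPM. Libraries within an age were close for both genes and the ages lay far apart, with log2 changes of -1.47 (SE 0.13; limma adjusted p = 4.4e-06) and -1.27 (SE 0.15; limma adjusted p = 0.00011). Enpp6, a choline-specific phosphodiesterase of oligodendrocytes that have just left the precursor stage, was at 43.9, 29.6 and 28.2 CPM and then at 18.3, 19.6 and 13.9 CPM (limma adjusted p = 0.0093). Fyn, a kinase that signals from the axon contact into the oligodendrocyte, changed by -0.53 (SE 0.09; limma adjusted p = 0.0022) from a level of 172 to 202 CPM down to 119 to 133.5 CPM. These 4 calls held in each fit without 1 library. The sialidase gene Neu4, the kinesin gene Kif19a and the scaffold gene Cnksr3 made up the 7, with log2 changes of -0.69, -1.06 and -0.82. They missed the threshold without 6-month replicate 1 (Neu4, 0.063; Cnksr3, 0.065) or without 1-month replicate 2 (Kif19a, 0.063). The median log2 change of the 25 genes was -0.27, and the fits without 1 library gave 5 to 9 falls, the highest without 6-month replicate 3, where the median was -0.51 and 1 gene rose. Their summed level was 1444 to 1645 CPM at 1 month and 1228 to 1310 CPM at 6 months. After the GC correction 10 fell.

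**Figure D3:**
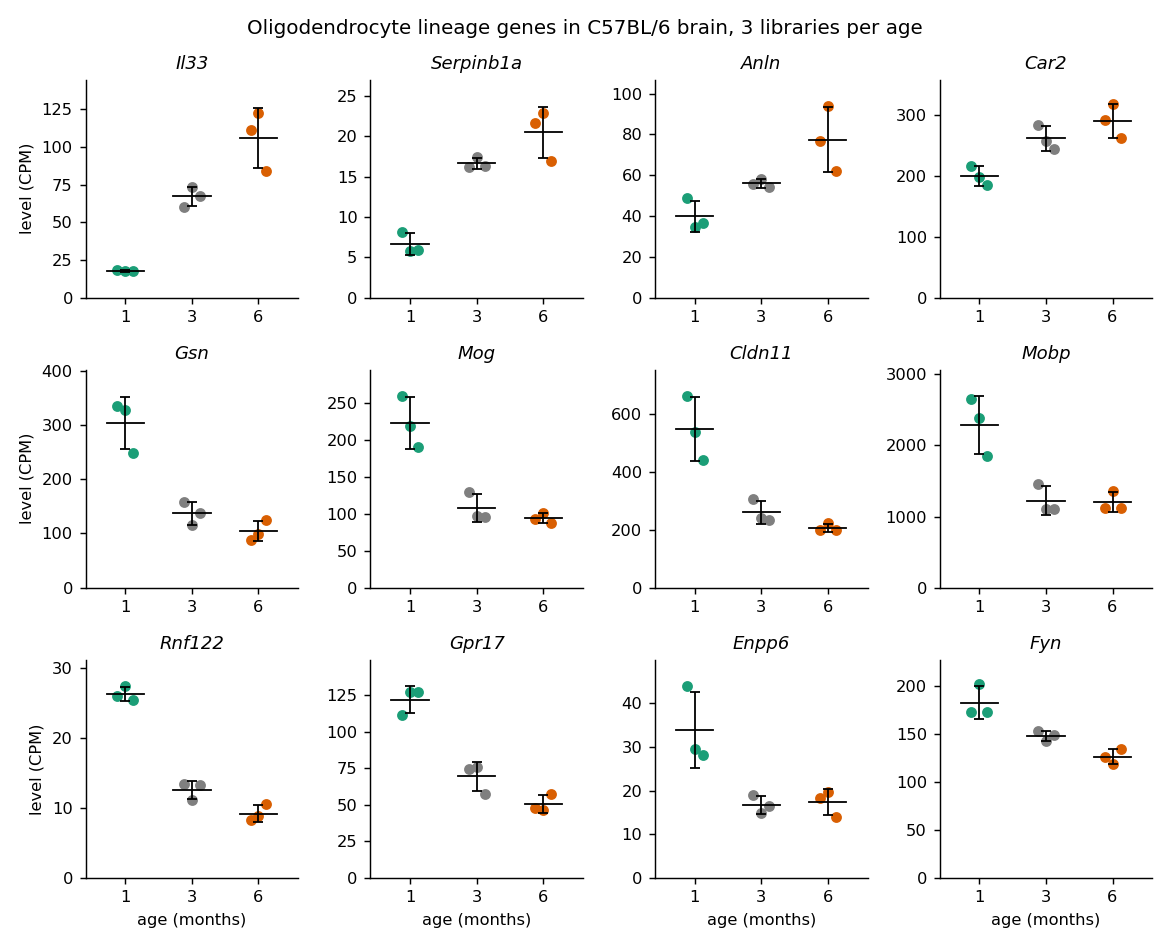
Level in CPM (vertical axes, linear from 0) of 12 oligodendrocyte lineage genes in C57BL/6 brain at 1, 3 and 6 months; points are the 3 libraries of an age, long bars the mean and error bars the SD. Il33, Serpinb1a, Anln and Car2 lie higher and the other 8 lower at 6 months than at 1 month, and for most of them the 3-month libraries already sit near those of 6 months.

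Promoter letters were compared within the myelin list because its members moved in opposite directions. The RefSeq table held 24 of the 33 genes. The falling genes Mog and Mobp are printed with the letters ACAAAG and ACAATG in capitals, the core letters bound by SOX-family factors, which include SOX proteins of the oligodendrocyte lineage; both strands were searched. Bases of the genes' own exons were left out, so the Mobp window has 215 bases.
Mog, chr17:37023399-37023648, minus strand: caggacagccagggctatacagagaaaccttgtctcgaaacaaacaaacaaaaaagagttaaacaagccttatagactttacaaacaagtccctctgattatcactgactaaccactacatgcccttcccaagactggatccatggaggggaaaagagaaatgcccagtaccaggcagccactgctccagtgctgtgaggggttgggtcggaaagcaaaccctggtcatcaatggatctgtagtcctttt
Mobp, chr9:120149492-120149706, plus strand: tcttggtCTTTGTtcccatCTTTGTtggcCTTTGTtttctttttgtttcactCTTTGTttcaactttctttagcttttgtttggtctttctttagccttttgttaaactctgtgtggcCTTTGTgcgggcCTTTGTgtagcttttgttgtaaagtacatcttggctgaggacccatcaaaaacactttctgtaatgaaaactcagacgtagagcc
Mog holds neither motif in this window, and Mobp holds ACAAAG 6 times, each on the opposite strand, between 243 and 115 bases before its start. Of the 15 windows of falling genes 6 held one of these letters (40%), and of the 4 windows of rising genes 0 did. The share was 38.9% in the 36 windows of the list and 25.2% in all 32851 windows. TATAAA was found in 2 of the 4 windows of rising genes, both of Il33, and in 0 of the 15 of falling genes. With so few windows these shares describe the letters only.

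Genes of the fibrous matrix fell. Col3a1, encoding a fibrillar collagen of the brain's covering membranes and vessel walls, lies at chr1:45311538-45349706 and was at 30.0, 27.8 and 35.9 CPM at 1 month and at 5.70, 7.30 and 8.27 CPM at 6 months. Eln, encoding elastin, went from 26.6, 33.7 and 29.8 CPM to 6.14, 5.81 and 11.9 CPM. No 6-month library of either gene came near the 1-month range, although replicate 3 was the highest of its age in both. The log2 changes were -2.07 (SE 0.24; limma adjusted p = 0.00011) and -1.92 (SE 0.28; limma adjusted p = 0.0011), the second and the third largest falls among the genes named. The window before the start of Col3a1 is shown as that of the collagen with the largest fall; capitals mark ACAAAG and TATAAA, 176 to 171 and 117 to 112 bases before the start.
Col3a1, chr1:45311288-45311537, plus strand: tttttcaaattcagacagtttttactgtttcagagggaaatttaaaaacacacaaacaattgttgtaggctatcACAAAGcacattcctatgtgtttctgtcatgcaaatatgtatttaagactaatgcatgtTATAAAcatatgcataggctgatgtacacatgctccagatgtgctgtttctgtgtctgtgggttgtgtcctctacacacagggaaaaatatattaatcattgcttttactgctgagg
Of 25 windows from 20 genes of the collagen list, 8% held TATAAA and 8% held ACAAAG or ACAATG.

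Of 30 collagen and fibroblast genes 9 fell and 0 rose, against 2.65% and 1.79% of all genes. Their median log2 change was -0.38, against 0.001 over all genes, and 28 of the 30 changes were below 0. Lox, which crosslinks collagen and elastin, was at 4.92, 3.47 and 4.60 CPM and then at 1.25, 1.12 and 1.55 CPM (log2 change -1.42, SE 0.27; limma adjusted p = 0.007). Nid1, which links laminin to collagen in basement membranes, and Col5a2, which sets fibril width, changed by -1.04 and -1.12 (limma adjusted p = 0.0012 and 0.0051). Sparc, a collagen-binding protein that astrocytes and vessels also make, went from between 1017 and 1478.5 CPM to between 698 and 768 CPM, and its call was lost without 6-month replicate 1 (adjusted p = 0.056) or 1-month replicate 2. Col1a1 and Col1a2, the chains of the main fibrillar collagen, changed by -1.48 and -1.17 (limma adjusted p = 0.036 and 0.0086). For Col1a1 the 6-month libraries spread from 13.04 to 43.1 CPM, replicate 3 being the highest, and 4 of the 6 fits without 1 library lost the call (adjusted p up to 0.19, without 6-month replicate 2). Adamts18, a secreted metalloprotease, and C1qtnf6, a secreted protein with a collagen-like stalk, were outside the list and fell by 1.58 and 1.46 on the log2 scale, with calls that held in each fit without 1 library. The summed list was at 1962 to 2192 CPM at 1 month and 1185 to 1469 CPM at 6 months. After the GC correction 9 again fell, and the fits without 1 library gave 5 to 14, the highest without 6-month replicate 3, where the median was -0.64. In the list of brain-specific matrix and perineuronal nets 0 of 19 genes passed, with a median change of -0.07; after the GC correction 2 rose and 4 fell (median -0.17), and without 6-month replicate 3 there were 5 falls.

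In the immature neuron list 5 of 32 genes tested fell and 0 rose, against 2.65% and 1.79% of all genes. Marcksl1, which encodes an actin-organising substrate of protein kinase C in growing neurites, was at 182, 211 and 193 CPM and then at 55.9, 51.9 and 74.7 CPM. With a log2 change of -1.69 (SE 0.14; limma adjusted p = 2.5e-06) it had the smallest adjusted p of all genes named that fell. Nrep, named for its part in neurite regrowth, went from 182, 210.3 and 248 CPM to 118, 102 and 95 CPM (log2 change -1.02, SE 0.15; limma adjusted p = 0.0012). Neurod1, a transcription factor of granule neurons in cerebellum and hippocampus, went from 46.1, 56.3 and 64.2 CPM to 27.4, 21.4 and 27.9 CPM (log2 change -1.10, SE 0.21; limma adjusted p = 0.0066). The ages were separate for all 3, and each call held in the fits without 1 library. Dpysl3, a growth cone phosphoprotein, and Igfbpl1, a binding protein of insulin-like growth factor, changed by -0.39 and -0.91 (limma adjusted p = 0.025 and 0.047) and lost their calls in 5 and 4 of those fits. The median change over the 32 genes was -0.33 and 28 of them lay below 0. The fits without 1 library gave 3 to 11 falls, the highest without 6-month replicate 3. After the GC correction 7 fell and the median was -0.25. Their summed level was 3646 to 4024 CPM at 1 month and 2790 to 3518 CPM at 6 months, where replicate 3 was the highest. Neurod1 also stands in the cerebellum list described below.

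Dnmt3a, the methyltransferase that writes new DNA methylation in neurons after birth, was the member of the 19 DNA and chromatin regulators that passed; after the GC correction 3 fell. It was at 132, 131 and 122 CPM at 1 month and at 79.4, 74.8 and 86.8 CPM at 6 months, with narrow groups that lay well apart (log2 change -0.67, SE 0.09; limma adjusted p = 0.00061). Cell cycle genes gave 0 calls of 26, with a median change of 0.0005 and a summed level of 129.9 to 133 CPM at 1 month and 129.9 to 146 CPM at 6 months. In the axon growth and guidance list 2 of 32 fell: Sema6a, a transmembrane semaphorin, by 0.50 on the log2 scale (limma adjusted p = 0.0084), and Ntn1, encoding netrin, by 0.64 (limma adjusted p = 0.025). Ntn1 no longer passed after the GC correction (adjusted p = 0.16).

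**Figure D4:**
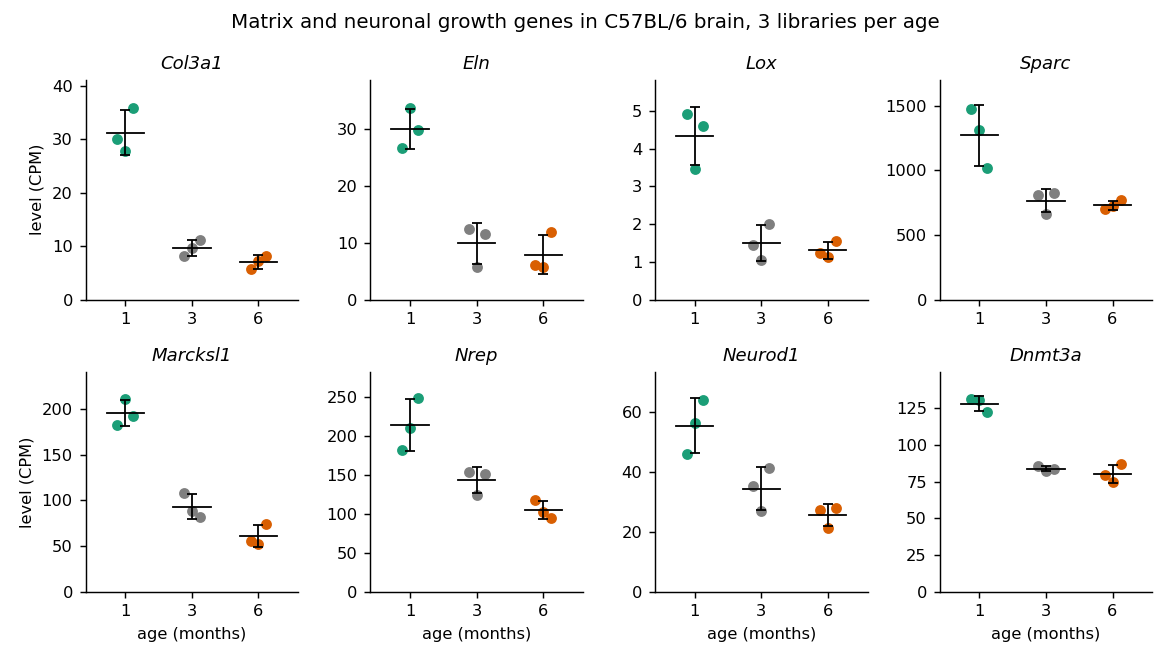
Level in CPM (vertical axes, linear from 0) of 4 matrix genes and 4 genes of growing neurons or DNA methylation in C57BL/6 brain at 1, 3 and 6 months; points are libraries, long bars the mean and error bars the SD. All 8 were lower at 6 months than at 1 month in every library.

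Other genes with large falls came from several functions. Mybpc3, known as a myosin-binding protein of heart muscle, went from 13.2, 20.9 and 16.2 CPM to 2.58, 3.13 and 4.28 CPM (log2 change -2.17, SE 0.30; limma adjusted p = 0.00061). Rab7b, a small GTPase of late endosomes, and Arpc1b, a subunit of the actin-nucleating ARP complex, changed by -1.62 and -1.39 (limma adjusted p = 0.00018 and 1.5e-05). Arpc1b overlaps another gene on the opposite strand, and the strand setting of the counts is not stated, so reads from both cannot be told apart. These 3 calls held in each fit without 1 library. Shisa8, an auxiliary protein of AMPA-type glutamate receptors, went from 19.9, 27.2 and 17.3 CPM to 6.67, 5.52 and 13.7 CPM, with 6-month replicate 3 the highest of its age. Its change of -1.35 (SE 0.33; limma adjusted p = 0.028) was lost in 4 of those fits (adjusted p up to 0.15, without 6-month replicate 2).

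Besides Abca8a, the largest rises outside the oligodendrocyte list that held in each fit without 1 library were those of Ankub1, Acer2, Neat1 and Pcdhga9. Neat1, the long noncoding RNA that scaffolds nuclear paraspeckles, went from 44.9, 27.8 and 42.1 CPM to 77.2, 87.3 and 65.6 CPM (log2 change 1.02, SE 0.15; limma adjusted p = 0.00082). Acer2, encoding a ceramidase of the Golgi, went from 4.36, 3.17 and 3.94 CPM to 7.92, 9.02 and 8.78 CPM (log2 change 1.08, SE 0.20; limma adjusted p = 0.0056). Both were named under a rule that required no overlap between the ages. Ankub1 changed by 1.41 (limma adjusted p = 0.00047) from between 1.64 and 1.86 CPM to between 4.35 and 6.14 CPM. The rises of Xdh, Sytl5, Gpat3 and Btaf1 each lost their call in at least 3 of the 6 fits without 1 library. Xdh, encoding xanthine dehydrogenase, changed by 1.19 (limma adjusted p = 0.041) and was lost in all 6 fits without 1 library, with adjusted p up to 0.12 without 1-month replicate 1. Sytl5, an effector of vesicle-bound Rab proteins, Gpat3, an acyltransferase of triglyceride synthesis that overlaps a gene on the opposite strand, and Btaf1, a regulator of the TATA-binding protein, changed by 1.17, 1.14 and 1.00 and lost their calls in 4, 3 and 3 of the fits (adjusted p up to 0.19 for Sytl5, without 1-month replicate 2).

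Markers of brain regions moved with age too, and are given because the share of each region in a library bears on every gene above. All 17 cerebellum genes were lower at 6 months and 5 of them passed, against falls in 2.65% of all genes. Their median log2 change was -0.79. Gabra6, a GABA-A receptor subunit of cerebellar granule cells, was at 55.9, 64.9 and 87.3 CPM and then at 35.7, 29.1 and 41.9 CPM (log2 change -0.94, SE 0.21; limma adjusted p = 0.017). Cbln1, which those cells release at their synapses, changed by -1.01 and Gdf10, a growth factor of the cerebellar glia, by -0.89 (limma adjusted p = 0.029 and 0.017). Their groups did not overlap, but Cbln1 lost its call in 5 of the 6 fits without 1 library and Gabra6 in 4 (adjusted p up to 0.15 and 0.10, both without 6-month replicate 2). The number of cerebellum genes that passed ran from 1 to 12 over those fits, and the median was -0.51 without 6-month replicate 2. Their summed level was 1429 to 1757 CPM at 1 month and 853 to 1182 CPM at 6 months.

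Striatum genes lay the other way, 14 of 14 above 0, with 1 that passed and a median log2 change of 0.40; 3 passed after the GC correction, 4 without 6-month replicate 3 and 0 in each of the other fits without 1 library. Pde10a, a cyclic nucleotide phosphodiesterase of striatal projection neurons, was at 115, 98.0 and 103 CPM and then at 287, 318 and 159 CPM, where 6-month replicate 3 sat nearer to the libraries of 1 month. Its log2 change was 1.21 (SE 0.30; limma adjusted p = 0.030), and 5 of the 6 fits without 1 library lost it (adjusted p up to 0.15, without 6-month replicate 2). Scn4b, a sodium channel subunit abundant in the same neurons, was at 213, 173 and 143 CPM and then at 328, 416 and 241 CPM, with a log2 change of 0.88 (limma adjusted p = 0.020, up to 0.12 without 6-month replicate 2). The summed striatum list was at 1147 to 1199 CPM at 1 month and 1563 to 1862 CPM at 6 months. In the other regional lists 0 of 12 olfactory bulb genes and 0 of 14 midbrain and hindbrain monoamine genes passed, at median changes of -0.44 and 0.54, the second being -0.02 without 1-month replicate 3. In the hippocampus list 1 of 13 rose and 3 fell, and in the hypothalamus list Npy, encoding neuropeptide Y, which the interneuron list also holds, was the 1 of 13 that fell (log2 change -0.82; limma adjusted p = 0.0093). The part of such regional shifts in the other results was not tested.

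Vessel genes did not move as a group. Of 22 endothelial genes 1 rose and 1 fell (2 and 2 after the GC correction), and of 16 genes of growing vessels 1 rose and 1 fell. Flt1, a decoy receptor of vascular endothelial growth factor, went from 22.2, 19.7 and 24.6 CPM to 40.1, 41.0 and 37.7 CPM (log2 change 0.83, SE 0.16; limma adjusted p = 0.0085, and 0.054 without 1-month replicate 2). Apln, encoding the peptide apelin, rose from 25.4, 30.9 and 27.4 CPM to 45.8, 48.0 and 43.8 CPM (log2 change 0.71, SE 0.12; limma adjusted p = 0.0042), and its call held in each fit without 1 library. The ages were separate and narrow for both. Cldn5, the main claudin of the blood-brain barrier, and Mcam, an adhesion molecule of vessel walls, changed by -0.81 and -0.76 (limma adjusted p = 0.034 and 0.012). The call of Cldn5 was lost after the GC correction (adjusted p = 0.062). Cldn5 also lost it without any 1 of the 1-month libraries and without 6-month replicate 1 or 2, where 0 endothelial genes fell. Mcam lost its call without 6-month replicate 1 (adjusted p = 0.072) and without 1-month replicate 2, where 0 genes of growing vessels fell. The 14 genes of pericytes and vascular smooth muscle gave 0 calls and a median of -0.13.

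In the choroid plexus list 19 of 23 genes lay above 0 and 2 passed, with a median log2 change of 0.49. Without 1-month replicate 3 the median was 0.22 and 0 passed, 0 also passed without 1-month replicate 2 or 6-month replicate 1, without 6-month replicate 3 the median was 0.32 with 3 rises, and after the GC correction 4 rose. Prlr, the prolactin receptor, was at 17.1, 9.44 and 9.97 CPM and then at 36.2, 30.0 and 22.5 CPM (log2 change 1.27, SE 0.30; limma adjusted p = 0.024), and Kl, encoding the hormone klotho, went from 28.4 to 47.2 CPM up to 57.1 to 72.9 CPM (log2 change 0.86; limma adjusted p = 0.028). Prlr lost its call in 4 and Kl in 3 of the 6 fits without 1 library, each up to 0.12 without 6-month replicate 1. The list's summed level overlapped between the ages, at 1710 to 2687 CPM and 2376 to 2820 CPM. Lrp2, the scavenger receptor megalin of the choroid plexus and ependyma, changed by 1.04 (limma adjusted p = 0.042) at 1.94, 3.23 and 1.42 CPM against 4.09, 3.28 and 8.19 CPM; without 6-month replicate 3 the adjusted p was 0.074. In the sex steroid and puberty list of 12 genes 2 rose, Prlr among them, and Srd5a1, encoding the enzyme that reduces testosterone and progesterone, fell. Srd5a1 went from 22.03, 22.8 and 17.1 CPM to 9.88, 9.99 and 10.4 CPM (log2 change -0.99, SE 0.15; limma adjusted p = 0.0017, at most 0.016 in the fits without 1 library).

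Immediate early genes, which neurons switch on within minutes of activity or handling, had a median log2 change of 0.49, with 23 of 27 above 0 and 2 passing. The median was 0.16 without 1-month replicate 1, where 0 passed, and 0.24 without 6-month replicate 3, where 1 rose and 1 fell. Fosb was at 4.60, 8.16 and 10.4 CPM and then at 14.3, 25.3 and 35.2 CPM (log2 change 1.61, SE 0.43; limma adjusted p = 0.041), and Nr4a2, an orphan nuclear receptor of the same response, changed by 0.84 (SE 0.19; limma adjusted p = 0.020). Both spread widely within an age. Fosb was lost in 5 of the 6 fits without 1 library (adjusted p up to 0.14, without 6-month replicate 2) and Nr4a2 in 2. After the GC correction 6 of the 27 rose. In the list of glucocorticoid response and heat shock 2 of 30 rose and 2 fell. Mt1, a metallothionein that binds zinc, went from 335, 237 and 261 CPM to 176, 169 and 135 CPM (log2 change -0.78, SE 0.14; limma adjusted p = 0.0058), a call that held in each fit without 1 library. The other 3 were the sulfotransferase gene Sult1a1, which changed by -1.102, and the chaperone gene Hsph1 and the kinase gene Pdk4, which changed by 0.52 and 0.81 (limma adjusted p = 0.011, 0.011 and 0.030). Hsph1 and Pdk4 both lost their calls without 1-month replicate 2 and without 6-month replicate 1 or 2, where 0 genes of the list rose. Only 1 gene rose without 1-month replicate 1 or 3. Sult1a1 lost its call without 6-month replicate 1, where 1 gene fell. Of 21 clock genes Per2 and Wee1 passed, changing by 0.79 and 0.45 (limma adjusted p = 0.046 and 0.025). Per2 was lost in all 6 fits without 1 library (adjusted p up to 0.16, without 1-month replicate 2). Wee1 was lost without any 1 of the 1-month libraries and without 6-month replicate 2, where 0 clock genes passed. The labels do not give the hour of collection.

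Nuclear genes of oxidative phosphorylation were slightly lower at 6 months, in 28 of 31, and 6 fell past the threshold, with a median log2 change of -0.22. Cox8a, a subunit of cytochrome oxidase, went from 382, 444 and 408 CPM to 231, 252 and 307 CPM, with 6-month replicate 3 the nearest to 1 month (log2 change -0.65, SE 0.13; limma adjusted p = 0.011, and 0.074 without 6-month replicate 1). Over the fits without 1 library the count ran from 0 to 8, and after the GC correction it was 11. The 8 protein genes of the mitochondrial genome gave 0 calls and a median of 0.01. Of 33 ribosomal protein genes 2 fell, at a median of -0.14.

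Lists of the other cell types and of inflammation gave 0 to 2 calls each, while 4.44% of all genes passed. Of 24 microglia genes 0 passed, with changes from -0.30 to 0.28, and their sum was 784 to 987 CPM at 1 month and 818 to 833 CPM at 6 months. Among 15 genes of disease-associated microglia the cathepsin gene Ctsl fell by 0.42 on the log2 scale (limma adjusted p = 0.014). Of 22 astrocyte genes 1 fell, the neurotensin receptor gene Ntsr2 (log2 change -0.49, limma adjusted p = 0.049, and 0.072 after the GC correction). Astrocyte falls numbered 0 without any 1 of the 1-month libraries, without 6-month replicate 1 or 2, and with edgeR. After the GC correction 2 other astrocyte genes fell, and without 6-month replicate 3 there were 1 rise and 2 falls. Of 20 reactive astrocyte genes 0 passed. Complement had 1 rise and 1 fall in 16 genes. Interferon-stimulated genes had 2 rises in 28, of which Xaf1, a pro-apoptotic zinc finger protein, changed by 1.01 at 0.986 to 2.31 CPM against 2.36 to 5.22 CPM (limma adjusted p = 0.035, up to 0.17 without 6-month replicate 2). Class I antigen presentation had 1 rise in 16, and class II and lymphocyte genes had 0 calls in 6 each. Complement and class I each had 0 rises without any 1 of the 1-month libraries and without 6-month replicate 1 or 2.

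Neuronal function lists gave few calls on the deposited scale. Their counts moved with 6-month replicate 3 and with the GC correction, as did the count over all genes. Of all 14895 genes 661 passed (4.44%), 1200 after the correction (8.06%) and 2455 without replicate 3. Counts of 1 or 2 in lists of this size are not set apart from those shares. The 17 ionotropic glutamate receptor genes gave 0 calls at a median change of 0.01, with 1 rise and 2 falls after the GC correction and 2 falls without replicate 3. The 27 genes of synaptic vesicles and the postsynaptic density gave 0 calls at a median of -0.08, with 1 rise and 1 fall after the correction and 2 rises and 6 falls without replicate 3. Gabra6 was the 1 of 21 GABA-A and glycine receptor genes that passed; the correction added 1 rise, and without replicate 3 there were 3 rises and 1 fall. Scn4b was the 1 of 27 potassium and sodium channel genes that passed, against 4 rises after the correction and 5 rises and 1 fall without replicate 3. Sterol synthesis had 2 falls in 23 genes (1 rise and 4 falls after the correction, and 0 calls in 5 of the 6 fits without 1 library), and the imprinted growth network 1 rise, Peg3, and 1 fall, Ndn, in 23 (log2 changes 0.44 and -0.70); after the correction 2 rose and 2 fell.

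**Figure D5:**
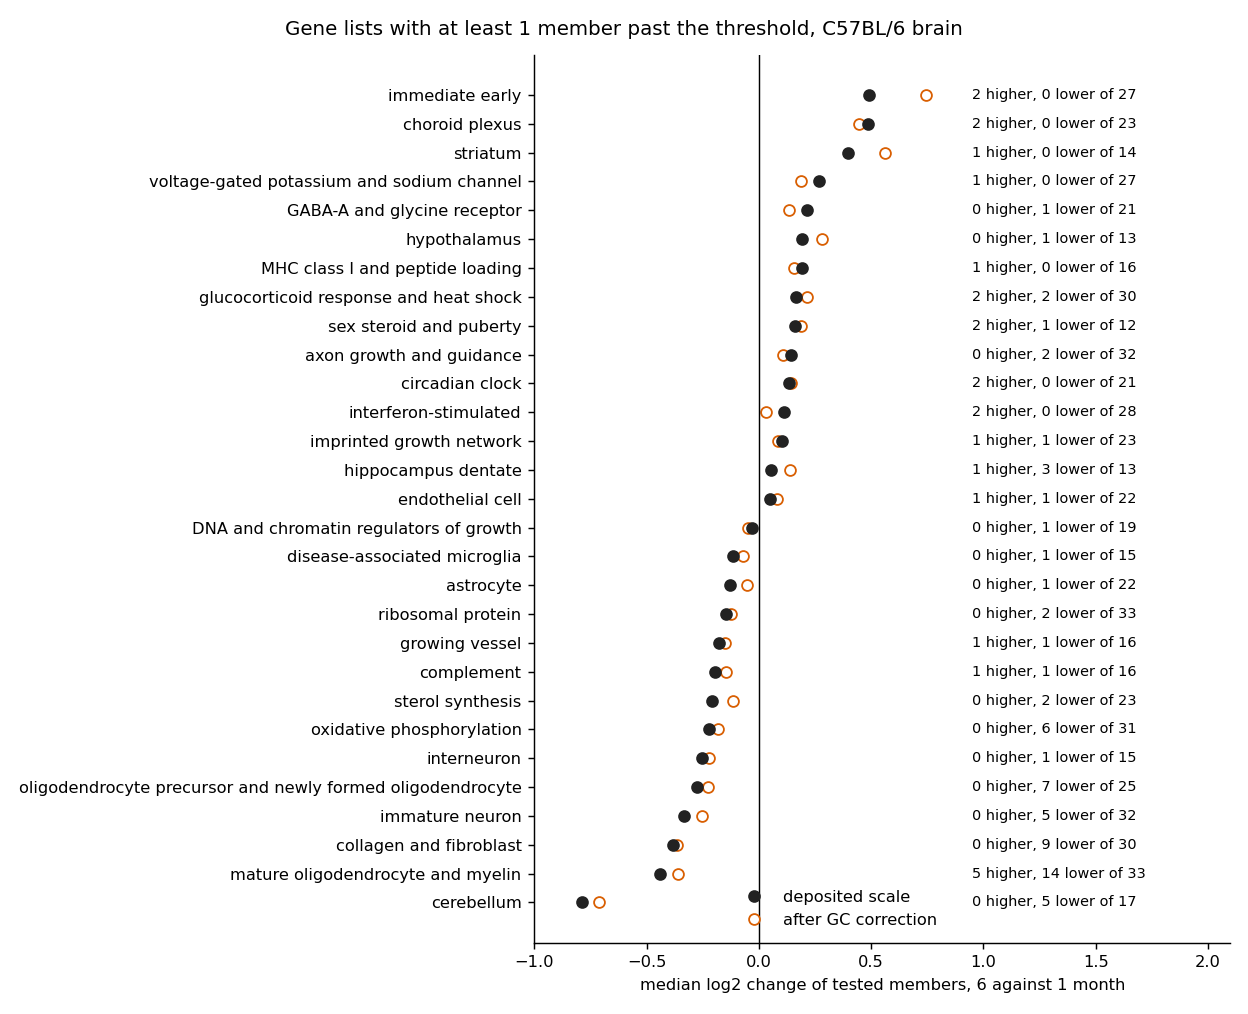
Median log2 change from 1 to 6 months (horizontal axis) of each gene list with at least 5 members tested and at least 1 past the threshold in C57BL/6 brain, on the deposited scale (black) and after the GC correction (open orange), with the numbers that rose and fell. Cerebellum lies lowest at -0.79, and choroid plexus and immediate early genes highest at 0.49, medians that were 0.22 and 0.16 without 1 library of 1 month (replicate 3 and replicate 1).

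The gamma cluster of protocadherins, adhesion molecules whose combinations mark single neurons, was looked at after Pcdhga9 and its neighbours appeared among the largest rises. Of 21 gamma genes tested 7 rose and 0 fell, with a median log2 change of 0.56, against 1 of 21 in the beta and 0 of 11 in the alpha cluster. Among all genes 1.79% rose. Pcdhga9 was at 4.92, 5.42 and 4.27 CPM and then at 12.99, 10.1 and 9.82 CPM (log2 change 1.09, SE 0.16; limma adjusted p = 0.0010). Pcdhga2, Pcdhga7 and Pcdhga5 changed by 0.98, 1.04 and 0.94 (limma adjusted p = 0.0034, 0.0064 and 0.0073). The gamma genes share their last exons, so 37 to 73% of the 31-base words of each lie in another member, and how the counting divided such reads is not known. The members are therefore uncertain one by one, and their counts are not independent.

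The libraries of 3 months show how far each gene had moved by then. The comparison of 3 with 1 month, which shares the 1-month libraries with the one above, called 74 genes (0.497%; 28 higher, 0.188%, and 46 lower, 0.309%), and 6 with 3 months called 0 (limma; 986 genes at an unadjusted p under 0.05, and edgeR also 0, with 1014). Il33 stood at 60.4, 73.5 and 67.5 CPM at 3 months, between the ranges of the other ages, and Abca8a at 6.91, 12.5 and 10.4 CPM, also between them. Mog was at 129, 97.9 and 95.4 CPM and Cldn11 at 307, 240.0 and 235 CPM, close to the levels of 6 months. Marcksl1 stood between the ages at 108, 88.8 and 82.2 CPM, and Col3a1 at 8.10, 9.62 and 11.3 CPM lay next to its 6-month values. From 1 to 3 months 2 of the 33 myelin genes rose and 10 fell, and 3 of 25 precursor genes, 3 of 30 collagen genes, 1 of 32 immature neuron genes and 0 of 17 cerebellum genes fell. The absence of calls between 6 and 3 months does not show equal levels. The C57BL/6 sample records of 3 months lie in the same stretch of numbering as those of 1 month. Age and any difference in preparation thus cannot be told apart between 6 and 3 months either.

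In NZB/W-F1 brain 389 genes (2.61%) passed between 6 and 1 month, 109 higher (0.732%) and 280 lower (1.88%). The groups compared share no library with the C57BL/6 comparison. Both comparisons take each gene's spread from the same 18 libraries, however, so the calls of the strains are not independent. One NZB/W-F1 library of 6 months, replicate 3, had Xist at 0.857 CPM, against 337 to 729.6 CPM in the other libraries of both strains at these ages, although it is labelled female; without it 129 genes passed. Both strains called 128 genes in the same direction, 19.4% of the C57BL/6 calls and 32.9% of the NZB/W-F1 calls, and 77 without that library. Of the 661 C57BL/6 genes 86.2% had the same sign in NZB/W-F1, against 66.0% of all genes. After the GC correction these shares were 74.4% and 56.5%, and the changes of both strains leaned on GC content in the same direction (r = -0.39 and -0.44 across genes).

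Abca8a and the leading oligodendrocyte and matrix genes also passed in NZB/W-F1. Il33 went from 23.5, 16.2 and 19.7 CPM to 64.1, 69.7 and 89.2 CPM (log2 change 1.88; limma adjusted p = 1.8e-06), and Abca8a from 2.61, 2.48 and 4.29 CPM to 16.9, 17.5 and 18.4 CPM (2.35; limma adjusted p = 8.3e-06). Gpr17 changed by -1.84, Mog by -1.46, Cldn11 by -1.41 and Col3a1 by -1.66 (limma adjusted p = 1.8e-06, 3.2e-05, 0.00016 and 0.0013). By list, 1 of 33 myelin genes rose and 14 fell, 11 of 25 precursor genes, 8 of 30 collagen genes, 4 of 32 immature neuron genes and 8 of 17 cerebellum genes fell, and without the library low in Xist these counts were 1 and 13, 4, 3, 3 and 3. The 1 myelin gene that rose was Il33, so Serpinb1a, Anln, Car2 and Qdpr were not called as rises in NZB/W-F1. Striatum genes had a median change of -0.64 in NZB/W-F1, with 0 of 14 passing, and of -0.32 with 0 passing without the library low in Xist, and their summed level ranged from 1137 to 1944 CPM at 1 month and from 659 to 1382 CPM at 6 months. Genes of oxidative phosphorylation had 0 calls there and a median of -0.0025, and the gamma protocadherins 0 calls and a median of 0.18.

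The test of the difference between the strains' changes passed for 5 genes of 14895 (0.0336%), none of them in a list described above. The sample records of both NZB/W-F1 ages lie in the same stretch of the series' numbering, unlike those of C57BL/6. Strain and any difference in preparation therefore cannot be told apart in this test. Serpinb1a, which rose in C57BL/6, changed by 0.28 in NZB/W-F1 (limma adjusted p = 0.38), where it was already at 12.2 to 19.5 CPM at 1 month. Its interaction did not pass on the deposited scale (1.29; limma adjusted p = 0.11) and passed after the GC correction (1.30; limma adjusted p = 0.028). Pde10a changed by -0.72 in NZB/W-F1, and its interaction of 1.93 had an adjusted p of 0.14, and of 0.048 after the GC correction. Among the 5 genes, Gsto1, a glutathione transferase, fell in C57BL/6 from 34.6, 33.2 and 33.1 CPM to 21.8, 22.7 and 19.9 CPM (log2 change -0.64, SE 0.11; limma adjusted p = 0.0034) and was at 24.1, 19.5 and 21.6 CPM and then 27.6, 24.4 and 27.1 CPM in NZB/W-F1. Its interaction of -0.92 passed at 0.043, and missed at 0.19 without the library low in Xist.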

How the data were processed

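RNA-seq of 52 libraries covers kidney, spleen and brain; the brain table, with 18 libraries in 6 groups of 3, is used here. TRIzol was used for total RNA and a TruSeq RNA v2 kit for the libraries, per the labels' protocols. The submitters' processing notes name STAR 2.6, HTSeq, edgeR and the build mm10. The deposited values are a signal, CPM scaled by trimmed-mean factors (the geometric mean of the column totals is 1000000), and 100% of them came out as whole reads within a tolerance of 0.01; the plan had assumed plain CPM. In units of 1000000 reads in genes, depths over the 18 libraries were 6.52 to 17.5 (median 12.0), and 3 reads, the floor used here, equal 0.183 to 0.329 CPM at 1 month and 0.221 to 0.267 CPM at 6 months of C57BL/6.

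All 14895 genes reached 1 CPM in 3 or more libraries and were fitted on log2(CPM + 0.5) with limma 3.58.1 (R 4.3.3), trended moderation, 6 group means and 12 residual degrees of freedom. The threshold was a two-sided Benjamini-Hochberg adjusted p of 0.05. Log2 changes are on this scale and understate the change of low genes. Alternatives were edgeR 4.0.16 on recovered reads, median-of-ratios scaling, no filter or a CPM of at least 5, a pseudocount of 0.1, only the compared groups, a replicate block and leaving out each library; where 2 libraries remain in a group, they are assumed to vary like the others. The GC correction, a loess fit of each library's deviation on gene GC content (span 0.5), was added after seeing the data. The fit was tested on simulated counts.

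Members and the 45 lists were chosen with earlier results of these data known. Named genes were the 15 largest changes per direction among those past the threshold, with a group mean of 5 CPM or more and no overlap, passing over predicted genes, RIKEN clones and genes sharing 50% or more of their 31-base words, and up to 6 passing members of each list. The rest, further members of the myelin list among them, were named with their values seen. Annotation was GENCODE vM21 (GRCm38, the assembly of mm10), matching 14888 of 14895 genes; promoters came from RefSeq. Some members of the lists are counted with their list but are not reported here by name.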

Additional observations from a re-analysis of the deposited data

Results flagged for a closer look

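In 5 genes the change from 1 to 6 months differed between C57BL/6 and NZB/W-F1 by the test of the interaction (limma, Benjamini-Hochberg adjusted over 14895 genes). Groups held 3 libraries, so none was searched for a single outlying library. As stated above, strain and any difference in preparation cannot be told apart in this test.

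Gm42756, a predicted gene at chr9:109537100-109552780, had the largest difference, 2.62 (adjusted p = 0.0024). In C57BL/6 it was at 0.161, 0.0609 and 0.110 CPM at 1 month, at or below the level of 3 reads, at 3.07, 2.61 and 3.56 CPM at 3 months, and at 5.78, 6.33 and 5.09 CPM at 6 months. In NZB/W-F1 it was at 0, 0 and 0.148 CPM and then at 0.553, 0.558 and 0.172 CPM. Its fitted changes depend on the pseudocount and are no bound.

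Gkn3, a gastrokine gene, rose in C57BL/6 from 0.565, 0.670 and 0.657 CPM to 2.23, 1.79 and 1.55 CPM and fell in NZB/W-F1 from 1.69, 2.12 and 1.92 CPM to 0.553, 0.651 and 0.257 CPM, a difference of 2.36 (adjusted p = 0.0047). The groups of each strain were separate, at low counts. Both this gene and Gm42756 also passed without the NZB/W-F1 library low in Xist (adjusted p = 0.019 and 0.0065) and without C57BL/6 6-month replicate 3 (0.0064 and 0.0046).

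The noncoding RNA A330076C08Rik differed by 1.88 (adjusted p = 0.037), from a mean of 1.44 to 3.05 CPM in C57BL/6 against a change of -1.01 in NZB/W-F1. Zfas1, a noncoding RNA that hosts small nucleolar RNAs, differed by -1.09 (adjusted p = 0.037), going from a mean of 22.4 to 16.4 CPM in C57BL/6 and rising by 0.65 in NZB/W-F1. Gsto1 differed by -0.92 (adjusted p = 0.043). For these 3 the adjusted p was 0.19 without the library low in Xist and 0.056, 0.057 and 0.069 without C57BL/6 6-month replicate 3.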

How the results depend on the processing

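The 661 calls moved to 83 (33 higher, 50 lower) with only the compared groups, to 1200 (569 and 631; 47.4% higher against 40.4%) after the GC correction, to 1167 (565 and 602) with the GC correction and without 6-month replicate 3, and to between 161 and 2455 without 1 library. With a replicate block 466 passed; same-number libraries of both ages had residual correlations of 0.31, -0.49 and -0.27, so the numbers do not pair them. The NZB/W-F1 count of 389 became 840 with only the compared groups, 852 after the GC correction (39.1% higher against 28%), 272 with the replicate block, and 129 to 474 without 1 library. The 5 strain differences became 1 at a CPM of at least 5 or a pseudocount of 0.1, 2 with only the compared groups, 59 after the GC correction and 2 to 31 without 1 library (31 without NZB/W-F1 6-month replicate 2). The 74 calls of 3 against 1 month became 45 with only the compared groups, 297 after the GC correction, 54 with the replicate block and 23 to 34 without 1 library; 6 against 3 months stayed at 0 in each. Other alternatives kept these counts within 1.5 times, and no named gene changed sign. Of the 124 named genes that passed, 121 still did with edgeR, 120 after the GC correction, 102 with the block, 38 with only the compared groups and 59 to 120 without 1 library of C57BL/6. The causes were not tested. At these depths genes near 3 reads per library carry little information.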
